A study of Homo sapiens with 32 samples.

Results

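Small nucleolar RNA host genes were taken as every gene of the count tables whose name is SNHG followed by a number, together with GAS5, ZFAS1 and EPB41L4A-AS1, which gave 31 of 62703 identifiers. They were read in HEK293T, an established human embryonic kidney cell line, each of whose knockout groups lacked IGF2BP1, IGF2BP2 or IGF2BP3 after CRISPR/Cas9 editing. These 3 genes encode RNA-binding proteins also called IMP1, IMP2 and IMP3. The cells received no other treatment. Each knockout was 1 clone grown from a single sorted cell after transient transfection with plasmids that carried 3 guide RNAs and GFP, and the control (WT) cells had received a guide that targets no mammalian gene. Total, nuclear and cytoplasmic RNA were sequenced after poly(A) selection. Total and nuclear RNA each had 4 control libraries, 1 per batch in batches 1 to 4, 2 IGF2BP1 knockout libraries in batches 1 and 2, and 2 libraries each of the IGF2BP2 and IGF2BP3 knockouts in batches 3 and 4. Cytoplasmic RNA had the same libraries and, in addition, 2 IGF2BP3 knockout libraries in batch 5, which holds no control. Because a knockout is a single clone and the labels do not say how its libraries arose, the p-values measure only the spread between these libraries, which may be technical.

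A small nucleolar RNA (snoRNA) guides the chemical modification or the cutting of ribosomal RNA, and most human snoRNAs are trimmed out of the introns of a host gene after splicing. Box C/D snoRNAs guide ribose methylation with the enzyme fibrillarin, box H/ACA snoRNAs guide pseudouridylation with the enzyme dyskerin, and scaRNAs do the same for spliceosomal RNAs in Cajal bodies. Many noncoding hosts start with a run of pyrimidines, the 5′ terminal oligopyrimidine start shared with ribosomal protein genes, and the spliced RNA of several, GAS5 among them, is bound by ribosomes and removed by nonsense-mediated decay. Poly(A) libraries read the spliced or partly spliced host transcript and not the snoRNA cut from it.

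Of the 31 genes, 30 held at least 1 snoRNA or scaRNA gene within their span in RefSeq (strand was not compared), with a median of 1. GAS5 (ENSG00000234741, chr1:173863900-173868882, minus strand, GRCh38, GENCODE 29) held 11, almost all box C/D, and SNHG1 (ENSG00000255717, chr11:62851988-62855914, minus strand) held 9. ZFAS1 (ENSG00000177410, chr20:49278178-49295738, plus strand) held the 3 SNORD12 snoRNAs and is antisense to the promoter side of ZNFX1. EPB41L4A-AS1 (ENSG00000224032, chr5:112160526-112164276, plus strand) held SNORA13. The windows shown here run from 10 bases before to 20 bases from the RefSeq start (GRCh38.p14, 5′ to 3′ on the gene's strand). SNHG32, ZFAS1, SNHG19, SNHG4 and SNHG12 are shown as members with a C and 4 pyrimidines at the start, beside GAS5 and SNHG1. The windows of SNHG3, SNHG29, SNHG16 and SNHG11, which also had large changes, are not shown. The list therefore does not tell how members with large changes start. Capitals mark the unbroken run of C and T that begins with a C at the start itself.
SNHG32, chr6:31834906-31834935, plus strand: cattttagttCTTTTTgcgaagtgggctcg
ZFAS1, chr20:49278632-49278661, plus strand: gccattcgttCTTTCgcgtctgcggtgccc
SNHG19, chr16:2155339-2155368, minus strand: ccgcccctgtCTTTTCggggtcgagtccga
SNHG4, chr5:139274091-139274120, plus strand: ctcccggctgCCCTTTCCCCTCCggcctct
SNHG12, chr1:28581854-28581883, minus strand: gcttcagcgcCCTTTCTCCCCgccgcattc
SNHG1, chr11:62855866-62855895, minus strand: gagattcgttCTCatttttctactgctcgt
GAS5, chr1:173869026-173869055, minus strand: tcatgaattcagatgtgtttattttggagc
A C at the start followed by 4 bases that are each C or T was found in 7 of the 27 members with a RefSeq promoter (25.9%) and in 1429 of 35116 RefSeq promoters (4.07%). The 7 were SNHG32, ZFAS1, SNHG19, SNHG4, SNHG12, SNHG5 and SNHG18. The match is read on the gene's strand at 1 annotated start only.

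Library totals ran from 16179939 to 24690494 counts for total RNA, from 13689067 to 26093403 for nuclear RNA and from 16720159 to 26119480 for cytoplasmic RNA. Of 31 members, 27 passed the filter on low counts in total and in nuclear RNA and 26 in cytoplasmic RNA, where SNHG22 was left out. SNHG18 had 0 counts in all 32 libraries, SNHG14 had 0 to 5, and SNHG27 and SNHG28 each had 0 to 2. SNHG22 and SNHG31 were at 0 to 1.24 CPM (read count scaled to a library of 1000000 counts) and were not called in any comparison with batch in the fit. The library labelled nuclear IGF2BP1 knockout replicate 1 and the library labelled total IGF2BP1 knockout replicate 2 held the same count at each of the 62703 identifiers, 26176 of them above 0. Results for IGF2BP1 in total RNA, nuclear RNA and their ratio are therefore given with and without it. In total RNA, the targeted gene was 396 to 469 CPM in control and 24.7 to 27.1 in the IGF2BP1 knockout, 73.6 to 104 against 34.3 to 34.8 for IGF2BP2, and 80.2 to 86.9 against 43.4 to 44.7 for IGF2BP3. In total control RNA, 5 markers of embryonic kidney lines summed to 909.5 to 945.8 CPM. Fractions were only partly separated: 4 nuclear RNAs (MALAT1, NEAT1, KCNQ1OT1 and TUG1) summed to 500.4 to 722.8 CPM in control nuclear RNA and to 296.8 to 333 CPM in control cytoplasmic RNA. MEG3 was listed as a nuclear marker too and is not among these 4. The cytoplasmic sum was 409 to 415 CPM in the IGF2BP1 knockout, 909.5 to 949 in the IGF2BP2 knockout and 503 to 1084 in the IGF2BP3 knockout.

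In control total RNA the host genes spanned a wide range per transcript length. GAS5 was the highest at 55.4 FPKM ± 4.82 (SD, n = 4), followed by SNHG1 at 46.5 ± 7.97, SNHG8 at 42.3 ± 5.65, SNHG3 at 37.2 ± 1.11 and SNHG19 at 36.5 ± 0.332. Each of these overlapped its neighbour in the order over the 4 libraries, so their order is not resolved. SNHG16 followed at 18.3 FPKM ± 1.73 and SNHG29 at 13.6 ± 0.751, while ZFAS1 was at 2.66 ± 0.0914. In nuclear RNA the order began with GAS5 at 77.9 FPKM ± 10.3 and SNHG1 at 74.8 ± 15, which overlapped. In cytoplasmic RNA SNHG8 was the highest at 49.4 FPKM ± 5.14, apart from the next, and SNHG3 at 37.1 ± 0.282, GAS5 at 37.1 ± 7.48, SNHG19 at 36.7 ± 5.19 and SNHG16 at 33 ± 1.06 each overlapped a neighbour. By counts rather than per length, SNHG29 alone held 26.5% of all member counts in control total RNA and GAS5 13.4%. The members together took 0.189% to 0.201% of counts in control total RNA, 0.203% to 0.262% in control nuclear RNA and 0.172% to 0.202% in control cytoplasmic RNA. In cytoplasmic RNA that share was 0.121% in both IGF2BP1 knockout libraries and 0.318% to 0.32% in the IGF2BP2 knockout, so these 2 knockouts lay on opposite sides of every control library.

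**Figure D1:**
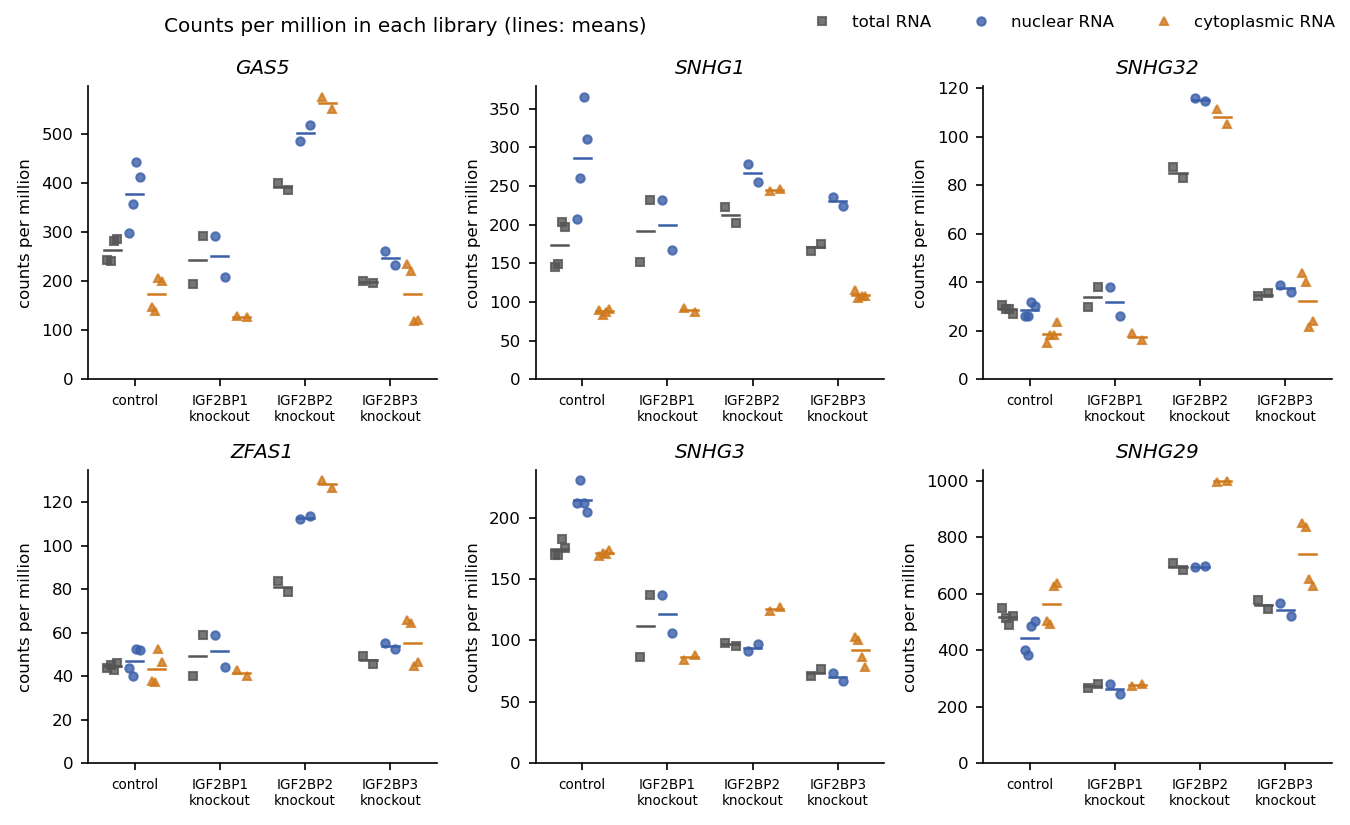
CPM (linear axes from 0) of GAS5, SNHG1, SNHG32, ZFAS1, SNHG3 and SNHG29 in each group, with squares for total, circles for nuclear and triangles for cytoplasmic RNA; each mark is 1 library and the short lines are means. In cytoplasmic RNA the 2 IGF2BP2 knockout libraries lie above all 4 control libraries for each of these genes except SNHG3, where they lie below them.

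The placement of the host transcripts was read from control nuclear against control cytoplasmic RNA, each library scaled to its own poly(A) RNA. A gene was called where the edgeR quasi-likelihood test gave a Benjamini-Hochberg adjusted p under 0.05 over all genes tested. Of 25 members tested, 14 were higher in nuclear RNA and 6 in cytoplasmic RNA, against 32.6% and 33.3% of all 16246 genes. The member median was 0.26 on the log2 scale, and the other 5 were not called.

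SNHG12, host of SNORD99 and 3 H/ACA snoRNAs, was the most nuclear member. It was read at 40.2, 46.7, 58.3 and 48.1 CPM in control nuclear RNA of batches 1 to 4 and at 14.5, 14.3, 14.3 and 12.8 CPM in the cytoplasmic RNA of the same batches. Its log2 nuclear over cytoplasmic ratio was 1.63 ± 0.079 (SE), above that of 94.3% of genes. SNHG1, a C/D host, was at 207, 261, 365 and 312 CPM in nuclear RNA and at 90.2, 82.7, 87.7 and 90.8 CPM in cytoplasmic RNA, a log2 ratio of 1.53 ± 0.0846. The nuclear and cytoplasmic libraries did not overlap for either gene, although SNHG1 varied more among the nuclear libraries. SNHG25, a short gene that hosts SNORD104, was at 3.92 to 6.5 CPM in nuclear and 1.97 to 2.25 CPM in cytoplasmic RNA, a log2 ratio of 1.18 ± 0.155. GAS5 was at 298, 357, 443 and 411 CPM in nuclear RNA and at 147, 140, 207 and 200 CPM in cytoplasmic RNA, a log2 ratio of 0.99 ± 0.0698 that exceeded the value of 88.1% of genes.

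At the other end, SNHG16, which hosts SNORD1A, SNORD1B and SNORD1C, was the most cytoplasmic member. Its nuclear libraries were at 128, 124, 122 and 128 CPM and its cytoplasmic libraries at 228, 230, 244 and 238 CPM. The log2 ratio was -1.04 ± 0.0642, and only 0.769% of genes were lower. EPB41L4A-AS1 was at 23.4, 22.7, 30.7 and 33.4 CPM in nuclear and 33.9, 35.3, 42.8 and 42 CPM in cytoplasmic RNA, a log2 ratio of -0.64 that 8.22% of genes fell below. SNHG29, host of SNORD49A, SNORD49B and SNORD65, had a log2 ratio of -0.49, with 15.7% of genes below it. ZFAS1 was not called, at a log2 ratio of -0.02, and neither were SNHG8, SNHG9, SNHG19 and SNHG21. Host genes therefore lay at both ends of the nuclear to cytoplasmic range of these cells.

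**Figure D2:**
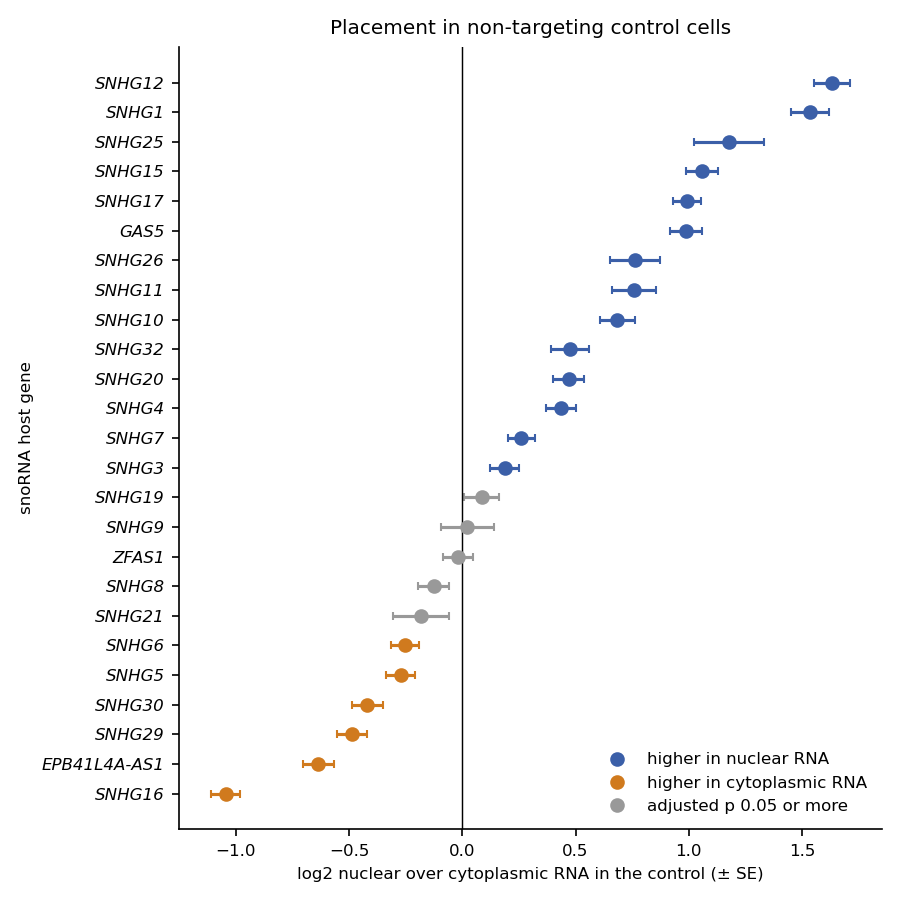
Log2 nuclear over cytoplasmic RNA in control cells for each of the 25 members tested, with the standard error of the fit; blue members were called higher in nuclear RNA, orange members higher in cytoplasmic RNA, and grey members were not called. SNHG12 and SNHG1 lead at 1.63 and 1.53, GAS5 is at 0.99, and SNHG16 is lowest at -1.04.

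In IGF2BP1 knockout cells, host genes called lower outnumbered those called higher in each RNA kind. In total RNA 9 of 27 members were lower and 2 higher, against 13.5% and 10.7% of 18745 genes. In nuclear RNA 13 were lower and 2 higher, against 13% and 12.7% of 18732 genes. In cytoplasmic RNA, which does not involve the repeated library, 18 of 26 were lower and 1 higher, against 21.9% and 22.5% of 18212 genes, and the member median was -0.44 beside a median near 0 for all genes. Without the repeated library, which leaves 1 knockout library in the fit, the member median was -0.416 in total RNA and -0.603 in nuclear RNA. The percentages of genes above belong to the fits that keep it. Counts given below without that library or without a batch have no percentage of genes beside them, so they cannot be set against all genes.

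Among the members called lower in all 3 RNA kinds, SNHG29 fell most in total RNA with all libraries. It was at 550, 515, 488 and 520 CPM in the control libraries of batches 1 to 4 and at 268 and 279 CPM in the knockout libraries. In cytoplasmic RNA it was at 502, 491, 629 and 636 CPM in control and at 272 and 279 CPM in the knockout. Every knockout library thus lay below every control library, and the log2 change was -1.02 ± 0.0864 in total RNA (adjusted p = 6.97e-06), -0.60 in nuclear RNA and -0.92 ± 0.0368 in cytoplasmic RNA (adjusted p = 2.72e-20). SNHG19, host of SNORD60, was at 19.2 to 19.7 CPM in control total RNA and at 8.74 and 11.9 CPM in the knockout, with log2 changes of -0.98, -0.93 and -1.42 in total, nuclear and cytoplasmic RNA. SNHG16 was at 146, 138, 124 and 120 CPM in control total RNA and at 94.8 and 68.2 CPM in the knockout, with changes of -0.88, -0.81 and -0.97. SNHG30, host of SNORD7, was at 28 to 31.9 CPM in control cytoplasmic RNA and at 14.7 and 14.8 CPM in the knockout, with changes of -0.83, -0.74 and -1.02. Without the repeated library the total and nuclear changes were -1.11 and -0.61 for SNHG29, -1.20 and -1.16 for SNHG19, -0.69 and -0.64 for SNHG16 and -0.92 and -0.66 for SNHG30, all still called. SNHG3, SNHG4 and SNHG20 were also called lower in all 3 RNA kinds.

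Of the 26 members tested in all 3 kinds, 7 were lower in all 3 and 1 was higher, against 6.6% and 4.22% of 17587 genes. Without the repeated library 10 were lower in all 3, the same 7 with GAS5, SNHG8 and SNHG25. The 1 higher was SNHG11, an H/ACA host at 10.9, 10.5, 14.8 and 14.7 CPM in control total RNA and 21.4 and 24.7 CPM in the knockout. Its log2 change was 1.04 ± 0.12 in total, 0.45 in nuclear and 0.50 in cytoplasmic RNA. Without the repeated library the total RNA change was 0.91, and the nuclear one was 0.28 and was no longer called (adjusted p = 0.158).

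GAS5 was at 194 and 292 CPM in the 2 IGF2BP1 knockout total RNA libraries, beside 244, 242, 282 and 285 CPM in control. The higher value is that of the repeated library. The total RNA change of -0.09 was not called (adjusted p = 0.646). Without that library it was -0.40 (adjusted p = 0.000557), and without knockout replicate 1, which leaves the repeated library alone, it was 0.22 (adjusted p = 0.0279). In nuclear RNA the GAS5 change was -0.42 with and -0.74 without that library, and was not called without knockout replicate 2 (adjusted p = 0.651). In cytoplasmic RNA, at 128 and 126 CPM in the knockout, it was -0.25 (adjusted p = 5.31e-06). SNHG1 was not called in any RNA kind with all libraries. Its nuclear change of -0.25 became -0.60 without the repeated library. Its total RNA change of 0.29 became -0.01 without the repeated library and 0.59 without knockout replicate 1. ZFAS1 was called only in nuclear RNA (0.26, adjusted p = 0.0379), and was not called there without that library (0.17, adjusted p = 0.326). EPB41L4A-AS1 was at 26.8 to 30.4 CPM in control total RNA and 21.2 and 24.5 CPM in the knockout, with changes of -0.38 (adjusted p = 0.0351) in total and -0.37 in cytoplasmic RNA, and its nuclear change of -0.10 was not called. Without the repeated library its total and nuclear changes were -0.59 and -0.19. The total RNA call of EPB41L4A-AS1 ended without knockout replicate 1 (adjusted p = 0.249) and with DESeq2 (adjusted p = 0.0804).

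In IGF2BP2 knockout cells the host genes split. In total RNA 6 of 27 members were higher and 12 lower, against 23.3% and 23.7% of genes; in nuclear RNA 7 were higher and 15 lower, against 24.8% and 24.9%; in cytoplasmic RNA 12 of 26 were higher and 10 lower, against 30.9% and 33.2%. The CPM values are shares of all counts in a library, whereas the fit scales libraries by TMM. In the IGF2BP2 and IGF2BP3 knockouts scaling by library totals alone shifted the median log2 change of all genes by 0.184 and 0.216 in total RNA, by 0.0972 and 0.125 in nuclear RNA and by 0.222 and 0.267 in cytoplasmic RNA, so fitted changes lie below the ratios of the printed CPM. By library totals alone the split for the IGF2BP2 knockout was 9 higher and 8 lower in total RNA and 13 higher and 6 lower in cytoplasmic RNA. Under upper quartile scaling it was 8 and 10 in total RNA and 12 and 8 in cytoplasmic RNA. The percentages of genes above belong to the TMM fits, so the counts under other scalings cannot be set against them. Over all genes, too, a larger share of the total RNA calls were higher by library totals alone.

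SNHG32, host of SNORD48 and SNORD52 and annotated as the protein-coding gene C6orf48 in GENCODE 29, rose most. In total RNA it was at 30.4, 28.9, 28.9 and 26.9 CPM in control and at 87.6 and 82.8 CPM in the knockout. In cytoplasmic RNA it was at 15, 18.2, 18.4 and 23.5 CPM in control and at 111 and 105 CPM in the knockout. No knockout library overlapped a control library, and the log2 change was 1.43 ± 0.118 in total (adjusted p = 1.41e-06), 1.79 ± 0.102 in nuclear and 2.14 ± 0.0825 in cytoplasmic RNA (adjusted p = 1.89e-21). ZFAS1 was at 43.8, 45.2, 43 and 45.9 CPM in control total RNA and at 83.6 and 78.5 CPM in the knockout, and its log2 changes were 0.68, 1.01 and 1.15 in total, nuclear and cytoplasmic RNA. EPB41L4A-AS1 was at 30.4, 26.8, 30.1 and 29 CPM in control total RNA and at 59.8 and 60.7 CPM in the knockout, with changes of 0.84, 1.15 and 1.05. SNHG11 was at 31.7 and 31 CPM in knockout total RNA, with changes of 0.91, 0.45 and 1.45, the nuclear one lost without control replicate 4 (adjusted p = 0.121). SNHG7, host of SNORA17A and SNORA17B, and SNHG29 were the other members called higher in all 3 kinds, which made 6 members higher and 9 lower of 26, against 15.8% and 16.2% of 17587 genes. The total RNA call of SNHG29 (0.28) ended without control replicate 3 (adjusted p = 0.265) and without either knockout replicate (0.204 and 0.126).

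SNHG19, SNHG21, SNHG4 and SNHG16 fell most in total RNA among the members lower in all 3 kinds of the IGF2BP2 knockout. SNHG19 was at 7.6 and 8.7 CPM in knockout total RNA beside 19.2 to 19.7 CPM in control, with log2 changes of -1.43, -1.49 and -1.08 in total, nuclear and cytoplasmic RNA. SNHG21, which hosts SCARNA15, was at 4.36, 5.21, 6.08 and 5.44 CPM in control total RNA and at 2.97 and 2.56 CPM in the knockout, with changes of -1.25, -0.97 and -0.60, the last 2 not called without control replicate 3 of that fraction (adjusted p = 0.0786 and 0.0825). SNHG4, host of SNORA74A, was at 99.9, 101, 105 and 101 CPM in control total RNA and at 50.7 and 52 CPM in the knockout, with changes of -1.19, -1.45 and -0.94. SNHG16 was at 65 and 66.7 CPM in knockout total RNA, with changes of -1.07, -0.86 and -1.08. For these 4 genes no knockout library of total RNA reached a control library. SNHG3, SNHG5, SNHG8, SNHG10 and SNHG26 were also called lower in all 3 kinds.

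GAS5 and SNHG1, which hold the most snoRNA genes among the members tested, moved differently by fraction. GAS5 was at 399 and 386 CPM in knockout total RNA and at 485 and 518 CPM in knockout nuclear RNA, and neither change was called (log2 0.28, adjusted p = 0.0652, and 0.14). In cytoplasmic RNA it was at 574 and 551 CPM, beside 147, 140, 207 and 200 CPM in control, a change of 1.24 ± 0.0369 (adjusted p = 1.76e-24). SNHG1 was at 243 and 247 CPM in knockout cytoplasmic RNA, beside 82.7 to 90.8 CPM in control, a change of 1.23 ± 0.0445 (adjusted p = 3.31e-22), while in nuclear RNA it was at 278 and 255 CPM, beside 207, 261, 365 and 312 CPM in control, and was called lower at -0.44 (adjusted p = 0.00101). The nuclear call of SNHG1 ended without nuclear control replicate 3 (adjusted p = 0.0617), with DESeq2 (adjusted p = 0.0712) and without the batch term (adjusted p = 0.217). SNHG1, SNHG12, SNHG15 and SNHG17 were called lower in nuclear and higher in cytoplasmic RNA, a pattern seen in 1.73% of 17767 genes. SNHG15 was at 77.3 to 105 CPM in control and 84 and 90.5 CPM in knockout nuclear RNA, and its nuclear call (-0.27) was lost without control replicate 3 (adjusted p = 0.364) and without knockout replicate 1 (adjusted p = 0.429).

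In IGF2BP3 knockout cells nearly all called host genes were lower in total and nuclear RNA. In total RNA 17 of 27 members were lower and 1 higher, against 23.4% and 23.5% of genes, and the member median was -0.56. In nuclear RNA 15 were lower and 1 higher, against 25.3% and 25.1%, with a member median of -0.62. In cytoplasmic RNA 13 of 26 were lower and 7 higher, against 33.2% and 31.5%. By library totals alone the split was 4 higher and 13 lower in total, 2 and 15 in nuclear, and 12 and 9 in cytoplasmic RNA. Under upper quartile scaling it was 2 and 14 in total and 9 and 10 in cytoplasmic RNA. These counts have no percentage of genes under the same scaling beside them. By library totals alone a larger share of the total RNA calls over all genes were higher as well. Of the 26 members tested in all 3 kinds, 11 were lower and 1 was higher in all 3, against 18% and 17.1% of genes. The 11 include GAS5 and SNHG17, whose cytoplasmic changes turned direction under upper quartile scaling and by library totals alone.

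SNHG3, which hosts the H/ACA snoRNAs SNORA73A and SNORA73B that take part in early cleavage of the ribosomal RNA precursor, fell most in total and nuclear RNA. It was at 170, 170, 183 and 175 CPM in control total RNA and at 71.2 and 76.5 CPM in the knockout. In nuclear RNA it was at 212, 231, 212 and 204 CPM in control and at 73.3 and 67 CPM in the knockout. All knockout libraries lay below all control libraries, with log2 changes of -1.49 ± 0.132 in total (adjusted p = 2.05e-06), -1.69 ± 0.103 in nuclear and -1.03 ± 0.0454 in cytoplasmic RNA. SNHG19 was at 10.5 and 8.7 CPM in knockout total RNA, with changes of -1.24, -0.99 and -1.12. SNHG4 was at 56.9 and 62.7 CPM, beside 99.9 to 105 CPM in control, with changes of -1.31 in nuclear and -0.76 in cytoplasmic RNA. SNHG26, host of SNORD93, was at 5.64, 5.57, 6.46 and 6.53 CPM in control total RNA and at 3.65 and 4.92 CPM in the knockout, with changes of -0.83, -1.16 and -0.72. The total RNA call of SNHG26 rested on IGF2BP3 knockout replicate 1, without which the adjusted p was 0.0918.

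SNHG6, host of SNORD87, was the member called higher in all 3 kinds of the IGF2BP3 knockout. It was at 52.4, 50, 51.3 and 50.3 CPM in control total RNA and at 74.6 and 77 CPM in the knockout, with log2 changes of 0.36 (adjusted p = 0.0215), 0.34 (adjusted p = 0.00228) and 0.56 (adjusted p = 7.53e-12) in total, nuclear and cytoplasmic RNA. The total RNA call ended without control replicate 3 (adjusted p = 0.17), control replicate 4 (0.13) or either knockout replicate (0.0835 and 0.247). GAS5 was at 201 and 196 CPM in knockout total RNA, below all 4 control libraries, a change of -0.73 (adjusted p = 0.000276), and at 261 and 232 CPM in nuclear RNA, a change of -0.92 (adjusted p = 4.54e-09). SNHG1 was lower by the fit in total RNA (-0.45, adjusted p = 0.00833) and nuclear RNA (-0.68) and was not called in cytoplasmic RNA (0.03). ZFAS1 (-0.12 and -0.08) and EPB41L4A-AS1 (0.11 and 0.07) were not called in total or nuclear RNA, and in cytoplasmic RNA both were higher, by 0.13 (adjusted p = 0.0326) and 0.22, the first lost without control replicate 4 (adjusted p = 0.4).

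The cytoplasmic IGF2BP3 knockout libraries differed by batch. GAS5 was at 234 and 221 CPM in batches 3 and 4 and at 118 and 121 CPM in batch 5, and SNHG32 was at 43.8 and 40.2 CPM against 21.6 and 24.2 CPM. Of the 26 members, 17 lay lower in both batch 5 libraries than in the other 2, 5 lay higher and 4 overlapped. These are CPM values, and the same count was not taken over all genes, so it does not set the host genes apart. The fitted change rests on batches 3 and 4, where controls exist, and the batch 5 libraries entered only the estimate of spread. The cytoplasmic change of GAS5 was -0.11 (adjusted p = 0.0144), with 0.06 under upper quartile scaling and 0.16 by library totals alone, so its direction is not settled. The calls of SNHG17 and SNHG30, both -0.16, also turned to 0.01 and 0.10 under those scalings.

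**Figure D3:**
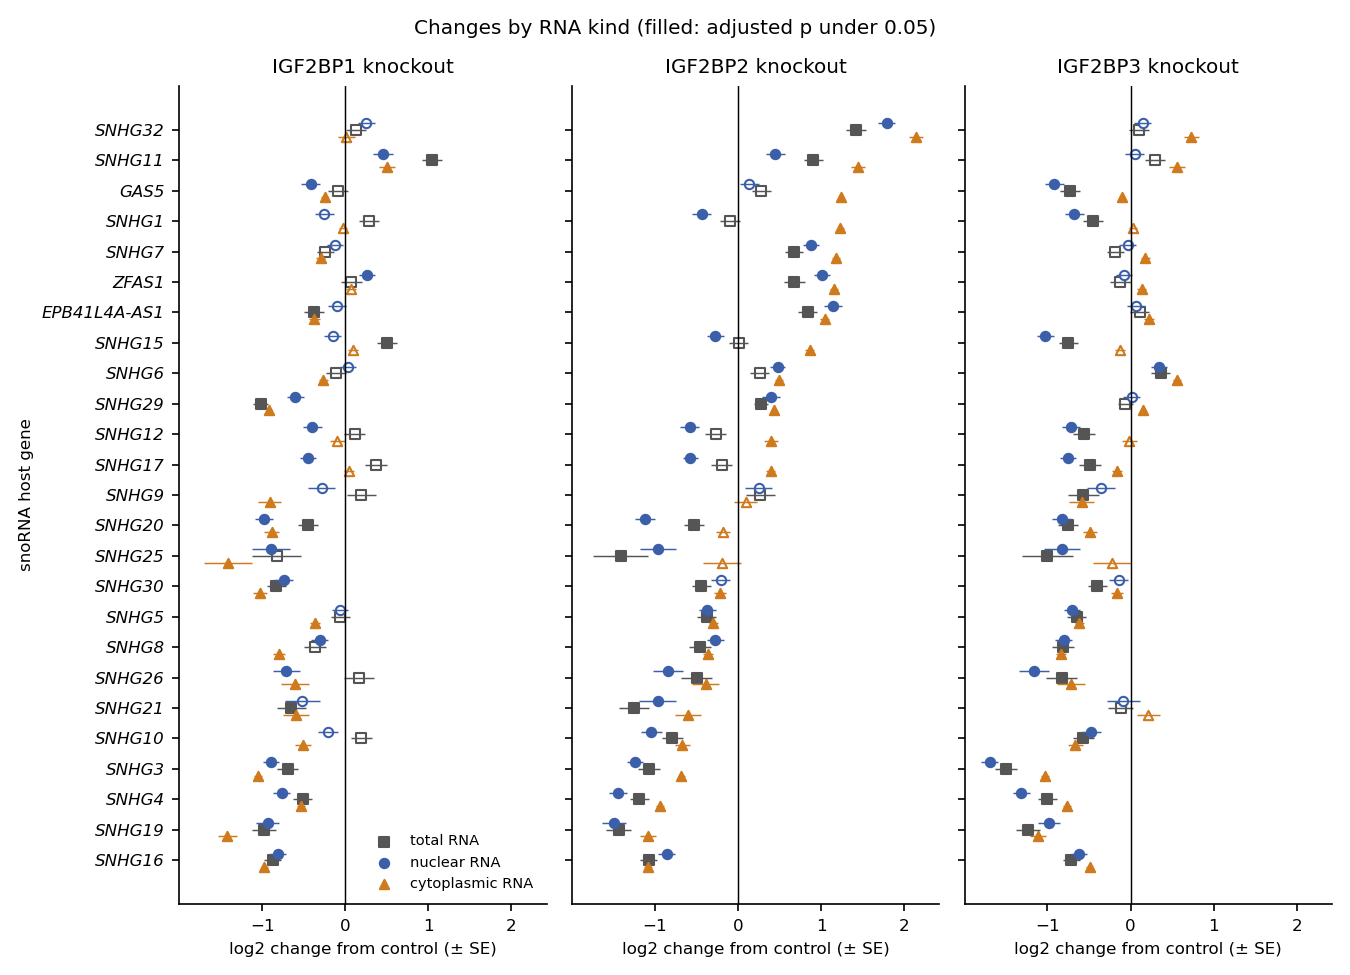
Log2 change (horizontal axis, with standard error) of 25 members in each knockout against control, by RNA kind, with filled marks where the adjusted p was under 0.05; SNHG22 and SNHG31 are not drawn. Filled marks left of 0 outnumber those right of 0 in total and nuclear RNA of the IGF2BP3 knockout (17 and 15 members lower, 1 and 1 higher) and in cytoplasmic RNA of the IGF2BP1 knockout (18 lower, 1 higher), while SNHG32 stands farthest right in the IGF2BP2 knockout.

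The knockouts share control libraries, so they were compared directly within the same fit. Between the IGF2BP3 and IGF2BP2 knockouts, 12 of 27 members were lower in IGF2BP3 and 2 higher in total RNA (21.5% and 21.8% of genes), 12 and 5 in nuclear RNA (24.1% and 24.1%), and 16 and 3 of 26 in cytoplasmic RNA (31.5% and 31.3%). SNHG32 differed most, at 34.2 and 35.6 CPM in IGF2BP3 knockout total RNA against 87.6 and 82.8 CPM in IGF2BP2 knockout total RNA, a log2 difference of -1.32 ± 0.116 (adjusted p = 2.75e-06). GAS5 was lower in the IGF2BP3 than in the IGF2BP2 knockout in all 3 kinds, by log2 differences of -1.01 ± 0.12, -1.06 and -1.35 in total, nuclear and cytoplasmic RNA. SNHG21 went the other way, at 5.99 and 6.37 CPM in IGF2BP3 knockout total RNA against 2.97 and 2.56 CPM, a difference of 1.13 ± 0.174 (adjusted p = 0.000199). ZFAS1 and EPB41L4A-AS1 were lower in the IGF2BP3 knockout by -0.80 and -0.73 in total RNA. SNHG16 was higher by 0.36 in total and 0.59 in cytoplasmic RNA, the total RNA call ending without any 1 of the 4 knockout libraries (adjusted p = 0.0995 to 0.167).

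Between the IGF2BP2 and IGF2BP1 knockouts, a comparison added after the values were seen and made across batches through the controls, 18 of 26 members were higher in IGF2BP2 in cytoplasmic RNA and 1 was lower, against 20.9% and 27.5% of genes. In total RNA 5 of 27 were higher and 4 lower, against 16.4% and 16.9% of genes, and without the repeated library 8 were higher and 3 lower. In nuclear RNA 8 of 27 were higher and 3 lower, against 13.6% and 14.5%, and without it 7 were higher and 2 lower. The 1 lower in cytoplasmic RNA was SNHG4 (-0.40). SNHG29 differed by 1.36 ± 0.0508, with 997 and 1000 CPM in the IGF2BP2 knockout and 272 and 279 CPM in the IGF2BP1 knockout, on either side of the 491 to 636 CPM of control. GAS5 differed by 1.49 ± 0.0547 and EPB41L4A-AS1 by 1.42 ± 0.0843. GAS5, EPB41L4A-AS1, SNHG6, SNHG7 and SNHG29 were each called lower in the IGF2BP1 and higher in the IGF2BP2 knockout in cytoplasmic RNA. All of these except GAS5 were also called higher in the IGF2BP3 knockout there, so by these calls the pattern is not particular to IGF2BP2. The IGF2BP3 changes of SNHG29 (0.15) and SNHG7 (0.18) were not called by edgeR without the batch term (adjusted p = 0.097 and 0.0625). The share of all genes with such opposite calls was not taken.

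The nuclear to cytoplasmic ratio fell for many host genes in the IGF2BP2 and IGF2BP3 knockouts. The test was the difference between the nuclear and the cytoplasmic change in batches 1 to 4. In the IGF2BP2 knockout 13 of 27 members were lower and 0 higher, against 9.71% and 7.77% of 19310 genes, and 7 were lower without batch 3. In the IGF2BP3 knockout 9 were lower and 0 higher, against 6.8% and 4.07%, and 3 were lower without batch 3. In the IGF2BP1 knockout 1 was lower and 1 higher, against 1.76% and 2.36%. At an unadjusted p under 0.05 there were 15 members for each of these 2 knockouts, both directions counted. Limma on log2(FPKM + 1) called 0 members in each of the 3 ratio comparisons, with 12, 12 and 8 members at an unadjusted p under 0.05 in the IGF2BP2, IGF2BP3 and IGF2BP1 knockouts, and DESeq2 called 9 and 8 members lower in the IGF2BP2 and IGF2BP3 knockouts. The share of all genes called by limma and by DESeq2 is not given beside these counts. They therefore do not separate the host genes from what each method calls over all genes.

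SNHG1 had the largest shift in the IGF2BP2 knockout. Its nuclear level exceeded its cytoplasmic level in all 4 control pairs, and the 2 were close in the knockout, at 278 against 243 CPM and at 255 against 247 CPM. The log2 ratio change was -1.71 ± 0.118 (adjusted p = 3.16e-26) in the IGF2BP2 knockout and -0.77 in the IGF2BP3 knockout, and the latter call rested on batch 3, without which the adjusted p was 0.12. SNHG15, host of SNORA9, was at 77.3, 89.1, 105 and 92.5 CPM in control nuclear RNA and at 41.6, 39.3, 38.5 and 38.4 CPM in control cytoplasmic RNA. In the IGF2BP2 knockout it was at 84 and 90.5 CPM in nuclear and 80.2 and 83 CPM in cytoplasmic RNA, and in the IGF2BP3 knockout at 54.6 and 51.4 CPM and at 41.6 and 43.3 CPM. The ratio change was -1.18 (adjusted p = 2.05e-15) and -0.96 ± 0.122 (adjusted p = 4.55e-10). GAS5 changed by -1.15 in the IGF2BP2 knockout and by -0.87 ± 0.118 (adjusted p = 4.11e-09) in the IGF2BP3 knockout. ZFAS1 and EPB41L4A-AS1 were not called in any of the 3 ratio comparisons.

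In the IGF2BP1 knockout the 2 called members were SNHG17, host of SNORA71 snoRNAs, at -0.48 ± 0.117 (adjusted p = 0.00709), and SNHG8, host of SNORA24, at 0.50 ± 0.128 (adjusted p = 0.0111). Without the repeated library the members called were SNHG17 (-0.59), GAS5 (-0.54), SNHG4 (-0.57) and SNHG1 (-0.63), all lower, and SNHG8 was at 0.18 (adjusted p = 0.652).

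Most ratio calls in the IGF2BP2 and IGF2BP3 knockouts were of members that were nuclear in control, 12 of 13 and 9 of 9. Placement and ratio change share control libraries, so a high control ratio tilts the ratio change downward in advance. The genes of the same placement, given beside the members, are read with the same tilt. Of the 14 nuclear members, 12 were called lower in the IGF2BP2 knockout, with a median of -0.90, beside 31% of the 5296 genes nuclear in control, whose median was -0.36. In the IGF2BP3 knockout 9 of the 14 were lower, with a median of -0.66, beside 20.4% of those genes and a median of -0.27. Of the 6 cytoplasmic members, 0 were called in either knockout, with medians of -0.05 and -0.19 beside 0.23 and 0.08 for the genes cytoplasmic in control. The ratio of the 4 nuclear RNA markers fell as well, in 4 of 4 in the IGF2BP2 knockout (median -1.52) and in 4 of 4 in the IGF2BP3 knockout (median -0.88), in step with their higher sums in cytoplasmic RNA given with the library totals. The part of incomplete separation of the fractions in the ratio changes of the host genes was not tested. Mitochondrial RNAs had a higher ratio in the IGF2BP3 knockout in 5 of 5 (median 0.93), and their part was not tested either.

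**Figure D4:**
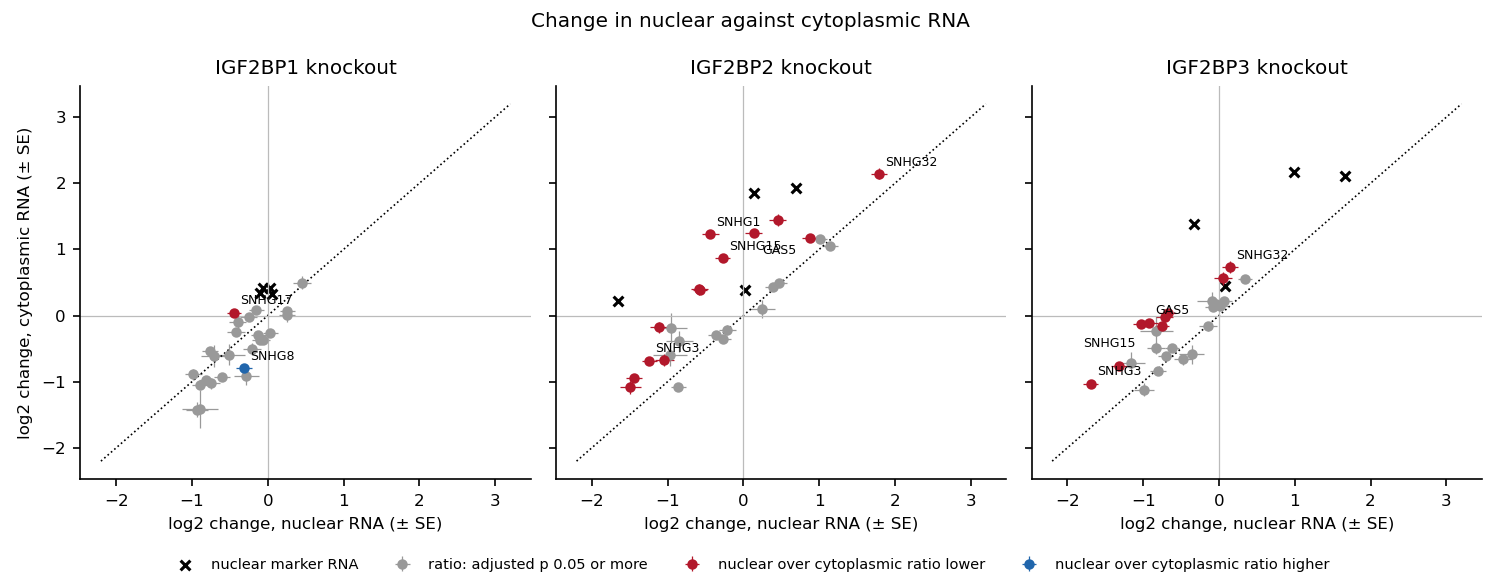
Log2 change in nuclear RNA (horizontal axis) against log2 change in cytoplasmic RNA (vertical axis), both with standard errors, for each member tested except SNHG31, with crosses for the nuclear marker RNAs and a dotted line of equal change. Red members, whose nuclear over cytoplasmic ratio was called lower (1, 13 and 9 in the IGF2BP1, IGF2BP2 and IGF2BP3 knockouts), lie above the line, and SNHG1 is farthest above it in the IGF2BP2 knockout at changes of -0.44 and 1.23.

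The members were split by the kind of start, and in IGF2BP2 knockout total RNA both sets held higher and lower members. Whether the kind of start bears on direction was not tested. The split rests on the annotated RefSeq start only. GAS5 was placed with the other starts, although its window lies outside the GENCODE span printed with its position. Of the 6 tested members with a C and 4 pyrimidines at the start, 2 were higher (SNHG32 and ZFAS1) and 3 lower in the IGF2BP2 knockout total RNA, with a median of -0.32. Of the 17 tested members with another RefSeq start, 4 were higher and 8 lower, with a median of -0.20. In the IGF2BP3 knockout 4 of 6 and 10 of 17 were lower and 0 of either set was higher. Tested members with no RefSeq promoter are in neither set. Among them is SNHG6, the only member called higher in IGF2BP3 knockout total RNA. The SNHG32 and SNHG19 windows printed with the gene positions, both starting with a C and then a run of T, belong to a member that rose and one that fell in the IGF2BP2 knockout.

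The mRNAs of most proteins that bind snoRNAs were lower in the IGF2BP3 knockout. Only RNA was measured. Of the 8 core proteins (FBL, NOP56, NOP58 and SNU13 of box C/D particles and DKC1, GAR1, NHP2 and NOP10 of box H/ACA particles), 7 were lower in total RNA (median -0.81), 7 in nuclear and 8 in cytoplasmic RNA, and 0 were higher, where 23.4%, 25.3% and 33.2% of all genes were lower. SNU13, the protein that first binds the C/D motif, was at -1.19 (adjusted p = 5.71e-07), and FBL, the methyltransferase, at -1.13 in total RNA. In the IGF2BP2 knockout 7, 3 and 7 of the 8 were lower in total, nuclear and cytoplasmic RNA, where 23.7%, 24.9% and 33.2% of all genes were lower, with NHP2 at -1.14 in total RNA. In the IGF2BP1 knockout 0, 2 and 8 were lower, where 13.5%, 13% and 21.9% of all genes were, and without the repeated library 1 was lower in total and 1 in nuclear RNA. Of 11 assembly factors, read against the same percentages, 8, 9 and 9 were lower in total, nuclear and cytoplasmic RNA of the IGF2BP3 knockout and 1 was higher in nuclear RNA. The paired ATPases RUVBL1 and RUVBL2 were at -0.96 and -0.95 in total RNA. In the IGF2BP2 knockout 7, 4 and 10 were lower, and in the IGF2BP1 knockout 1, 2 and 7, among them NOLC1, a nucleolar and Cajal body chaperone (-0.49 in total RNA, and -0.47 without the repeated library). Without that library 2 of the 11 were lower in total and 2 in nuclear RNA.

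Protein-coding snoRNA hosts moved mostly down. NOP56 and DKC1 are in this list as well as among the core proteins. Of 18, in IGF2BP3 knockout total RNA 15 were lower and 0 were higher (23.4% and 23.5% of all genes), led by NCL, which encodes nucleolin (-1.30), and PPAN (-1.23), and 14 were lower and 0 higher in the IGF2BP2 knockout (23.7% and 23.3%), led by TAF1D (-1.18) and HSPA8 (-0.99). In the IGF2BP1 knockout 4 were lower in total RNA (13.5% of all genes), with the elongation factor EEF2 at -0.66, and 15 lower and 1 higher in cytoplasmic RNA (21.9% and 22.5%). Without the repeated library 7 were lower in total RNA and EEF2 was at -0.48. Of 15 factors of nonsense-mediated decay, 4, 6 and 6 were lower in total RNA of the IGF2BP1, IGF2BP2 and IGF2BP3 knockouts and 0, 2 and 0 higher, where 13.5%, 23.7% and 23.4% of all genes were lower and 10.7%, 23.3% and 23.5% higher. The endonuclease SMG6 was at -0.93 in the IGF2BP1 knockout (-0.78 without the repeated library, with 4 factors lower as before), and RNPS1, a splicing factor that joins the exon junction complex, was at -0.76 in the IGF2BP2 and -0.79 in the IGF2BP3 knockout. No set was tested.

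Several hosts overlap or face a neighbour, and whether reads were counted by strand is not given in the sources used here, so the 2 cannot be fully told apart. RCC1, which shares its locus and direction with SNHG3, was at -0.65 in the IGF2BP2 and -1.28 in the IGF2BP3 knockout total RNA. EPB41L4A, across from EPB41L4A-AS1, was at 0.68 and 1.42, and ZBTB37, across from GAS5, at 0.92 and 0.88, in the same 2 comparisons, where GAS5 itself was not called and lower. ZNFX1, across from ZFAS1, was at -0.38 in the IGF2BP1 knockout, not called without the repeated library (-0.15, adjusted p = 0.405), and at 0.43 in the IGF2BP3 knockout.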

How the data were processed

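Reads were aligned with STAR and counted with featureCounts on GRCh38, with DESeq2 1.44.0 also named, per the submitters' processing notes. The annotation and the strand setting of the counting are not given in the sources used here. The authors deposited whole-number read counts per gene and RNA kind, which are the main input. The deposited FPKM values, made by the authors from the same libraries, gave levels per transcript length and the limma alternatives. Identifiers with no gene name (20403) held 0.349% to 0.713% of the counts of a library and named no member.

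Each RNA kind was fitted over all its libraries with edgeR 4.0.16 in R 4.3.3 (quasi-likelihood test, TMM, default filter on low counts by group), with genotype and batch as terms. Batch, as the labels give it, ties each knockout library to a control library, and the correlation of same-batch deviations ran from -0.112 to 0.0158. Placement was control nuclear against cytoplasmic RNA with batch. The ratio was the genotype by compartment interaction in batches 1 to 4. Calls needed an adjusted p under 0.05 (Benjamini-Hochberg, all genes tested). Log2 values follow knockout over control and are given with the standard error from the F statistic. The analysis was tested on simulated counts. CPM is a count divided by the library total. Alternatives were other scalings, no filter, DESeq2 1.42.0, limma 3.58.1 on log2(FPKM + 1) and log2(FPKM + 0.1), no batch term and leaving out each library. Named members were GAS5, ZFAS1, EPB41L4A-AS1, SNHG1, the 3 most nuclear and 3 most cytoplasmic members with at least 1 CPM in both fractions, up to 4 members per direction called alike in all 3 RNA kinds of a knockout, up to 2 per direction in each ratio and the 3 largest differences between the IGF2BP3 and IGF2BP2 knockouts, with up to 2 genes of each pathway list per knockout. Others were named after their values were seen. The members, the lists and the rule were chosen with earlier results of these data known.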

Additional observations from a re-analysis of the deposited data

Results flagged for a closer look

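Among 80 tests for a library far from the other 3 of its control group, 3 stood apart, where chance gives about 1 in 20. In cytoplasmic RNA, SNHG12 in control replicate 4 was at 12.8 CPM, below 14.3 to 14.5 CPM in the others, and SNHG19 in control replicate 4 was at 23.6 CPM, above 17.3 to 18.3 CPM. In nuclear RNA, SNHG26 in control replicate 2 was at 11.5 CPM, above 9.23 to 9.38 CPM.

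The nuclear and cytoplasmic changes of a gene differed, by the edgeR interaction test, for the members with the largest called ratio changes. In the IGF2BP1 knockout these were SNHG17 at -0.48 and SNHG8 at 0.50 on the log2 scale. In the IGF2BP2 knockout they were SNHG1 at -1.71 and SNHG15 at -1.18. In the IGF2BP3 knockout they were SNHG15 at -0.96 and GAS5 at -0.87.

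The IGF2BP3 and IGF2BP2 knockouts differed from each other in total RNA most for SNHG32 at -1.32, SNHG21 at 1.13 and GAS5 at -1.01 (IGF2BP3 over IGF2BP2).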

How the results depend on the processing

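The number of members called kept within 1.5 times of its value under scaling by RLE, by upper quartile and, where it was run, with no filter in each comparison fixed in the design (no filter was not run for the ratios). Limma on log2(FPKM + 1) called 6 members (total RNA) and 7 (nuclear RNA) for the IGF2BP1 knockout, against 11 and 15, and limma on log2(FPKM + 0.1) called 6 and 7. For the ratio, limma called 0, 0 and 0 members in the IGF2BP1, IGF2BP2 and IGF2BP3 knockouts, against 2, 13 and 9 with edgeR. In the IGF2BP1 knockout ratio DESeq2 called 0, with 3 members at an unadjusted p under 0.05, library totals alone called 1, and the fit without the batch by compartment term called 7. Without the replicate block, that is without batch terms, the IGF2BP1 ratio had 1 call, and the other designed comparisons kept within 1.5 times. In total RNA the added comparison of the IGF2BP2 with the IGF2BP1 knockout went from 5 higher and 4 lower to 9 and 5 without that term. These member counts have no share of all genes beside them, and the cause of the differences was not tested.

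Directions turned for values near 0. For GAS5 in IGF2BP1 knockout total RNA, leaving out control replicate 1 gave 0.23 and leaving out knockout replicate 1 gave 0.22, while leaving out control replicate 2 or knockout replicate 2 gave -0.40. In cytoplasmic RNA of the IGF2BP2 knockout SNHG30 became 0.01 by library totals alone. In cytoplasmic RNA of the IGF2BP3 knockout, upper quartile scaling gave 0.06 for GAS5 and 0.01 for both SNHG30 and SNHG17, and library totals alone gave 0.16 for GAS5, 0.10 for SNHG30, 0.10 for SNHG17, 0.25 for SNHG12 and 0.15 for SNHG15. Without the replicate block SNHG17 became 0.03 there.

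Leaving out 1 library at a time, or 1 batch in the ratio and placement fits, gave 10 to 17 calls for the IGF2BP1 knockout in total RNA, 11 to 16 in nuclear, 17 to 19 in cytoplasmic RNA and 0 to 4 in the ratio. The 17 came without control or knockout replicate 1, and the ratio had 0 without batch 2 and 4 without batch 1. For the IGF2BP2 knockout it gave 12 to 22, 17 to 22, 20 to 23 and 7 to 11, and for the IGF2BP3 knockout 11 to 20, 14 to 17, 14 to 20 and 3 to 9, the 11 without knockout replicate 1. Between these 2 knockouts it gave 9 to 20 in total, 11 to 18 in nuclear and 17 to 20 in cytoplasmic RNA, the 9 without either replicate of either knockout and the 11 without IGF2BP2 knockout replicate 2. Placement gave 19 to 20 calls. Over all genes, the share of calls that were higher moved from 44.1% to 56.2% by library totals alone in IGF2BP1 knockout total RNA, from 49.6% to 69% for IGF2BP2 and from 50.1% to 73.3% for IGF2BP3.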

Other observations

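The count tables also hold the snoRNA genes that lie in introns of the host genes, which poly(A) selection does not target. Of 46 such genes, 10 to 13 were above 0 in the nuclear RNA of a group. Their summed level in nuclear RNA was 11.6 to 18.4 CPM in control, 7.72 to 9.28 CPM in the IGF2BP1 knockout, 5.26 to 5.47 CPM in the IGF2BP2 knockout and 5.8 to 7.17 CPM in the IGF2BP3 knockout. The 1 library repeated under both labels is among the IGF2BP1 knockout libraries. No nuclear knockout library reached a control library. The host genes together took 0.269% to 0.276% of nuclear counts in the IGF2BP2 knockout and 0.203% to 0.262% in control. That share is weighted to the members with most counts, SNHG29 and GAS5 with 18.8% and 16.2% of nuclear member counts in control. By the fit, more members were called lower than higher in IGF2BP2 knockout nuclear RNA. In total RNA the snoRNA sums were 5.38 to 8.66 CPM in control and 5.36 to 9.28, 5.2 to 5.87 and 5.17 to 5.22 CPM in the IGF2BP1, IGF2BP2 and IGF2BP3 knockouts, and in cytoplasmic RNA 3.13 to 5.61 CPM in control and 2.95 to 3.7, 3.36 to 4 and 3.07 to 4.22 CPM. Only the IGF2BP3 knockout in total RNA lay apart from control there. The sums rest on 57 to 480 counts a library over all RNA kinds, and the difference was not tested.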
